A study of Homo sapiens with 24 samples.

Results

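The response to WWOX overexpression was compared between U87MG and DBTRG-05MG, a pair of established human glioblastoma cell lines, gene by gene as a difference of differences. The members were the autosomal genes with at least 5 CPM (tags scaled to a library total of 1000000) in at least 1 of the 12 libraries of these lines, and 11125 of the 43037 genes in the table were members. For each of them the effect in U87MG (the “WWOX” variant minus the “Vec” variant on a log2 scale) was set against the effect in DBTRG-05MG. A positive difference therefore means a more positive WWOX effect in U87MG, whichever line had the higher level of the gene.

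The study profiled 4 glioblastoma lines by cap analysis of gene expression (CAGE-Seq), which counts tags at the capped 5′ ends of RNA. Both lines used here were stably transduced either with a lentiviral vector (pLenti-GIII-CMV-GFP-2A-Puro, in which a CMV promoter drives WWOX) or with Puro-Blank lentivirus, and both variants were selected with puromycin. Each of the 4 groups (U87MG Vec, U87MG WWOX, DBTRG-05MG Vec and DBTRG-05MG WWOX) held 3 libraries, so that 12 of the 24 libraries of the series entered. U87MG and DBTRG-05MG grew in different media, so line and medium cannot be told apart. The sources describe 1 stable transductant per variant of each line, obtained by what they call clonal selection, so the effect of WWOX and a difference between separately selected populations cannot be told apart either. The methods call the libraries of a group a biological triplicate, and the p-values below measure the spread between them.

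WWOX is a tumour suppressor with a pair of WW domains, through which it binds proteins that carry proline-rich motifs, and a short-chain dehydrogenase domain. It lies across a common fragile site of chromosome 16 and is known as a partner of transcription factors such as p73, AP-2γ, JUN and RUNX2, which it can hold in the cytoplasm. A gene can therefore change with WWOX through different partners in cells that express different factors. That is background, and it was not measured here.

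The libraries held 11807721 to 16953689 tags, and 3 tags, taken here as the floor of detection, corresponded to 0.177 to 0.254 CPM. Among the markers of glioblastoma and glial cells, CD44 led in all 4 groups, the summed level of the 10 markers was 1005 to 1847 CPM in U87MG and 2214 to 3794 CPM in DBTRG-05MG, and no U87MG library held more than 3 tags of SOX2. The 5 endothelial markers summed to at most 5.19 CPM and the 5 epithelial markers to at most 2.72 CPM in any library, and the 5 myeloid markers summed to 6.36 to 15.6 CPM in U87MG and to at most 0.236 CPM in DBTRG-05MG. The 5 fibroblast markers, led by COL1A1, summed to 183 to 540 CPM in U87MG Vec, 112 to 226 CPM in U87MG WWOX and at most 5.07 CPM in DBTRG-05MG, and the change in U87MG was positive for the 4 others.

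WWOX itself (chr16:78099400-79212667, plus strand, hg38) was measured first. Its level was 40.1, 33.9 and 39.8 CPM in U87MG Vec against 66.0, 61.3 and 61 CPM in U87MG WWOX. In DBTRG-05MG it was 20.4, 22.2 and 21.3 CPM in Vec against 32, 28.2 and 28 CPM in WWOX. The WWOX libraries lay above the Vec libraries in both lines, and the lines themselves did not overlap within a variant. The log2 fold change was 0.66 ± 0.16 (SE, n = 3 against 3) in U87MG, with an adjusted p of 0.0299 by limma, and 0.39 ± 0.16 in DBTRG-05MG, with an adjusted p of 0.315. The difference between the lines was 0.26 ± 0.22 with a 95% interval of -0.21 to 0.74 and an adjusted p of 0.71, and the exact two-sided permutation test within lines, over 400 arrangements, gave p = 0.46. A different rise of WWOX between the lines was thus not detected, within an interval that leaves room for either sign. Other annotated genes overlap WWOX on both strands, so tags inside the locus need not all be its own. Transcripts of the vector start at its CMV promoter, so their 5′ tags need not be counted at this locus. The changes above may therefore not measure the full overexpression, which the methods checked at the protein level by Western blot.

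The effect of WWOX differed between the lines for 262 members (2.36% of 11125, by limma on log2(CPM + 0.5), Benjamini-Hochberg adjusted p under 0.05). It was more positive in U87MG for 127 of them (1.14%) and more negative for 135 (1.21%). Within U87MG alone 458 members changed (4.12%), 220 upwards (1.98%) and 238 downwards (2.14%), and within DBTRG-05MG alone 130 changed (1.17%), 65 each way (0.584% each). In both lines 16 genes were called, and 6 of them moved the same way while 10 moved in opposite ways. They were 3.49% of the U87MG calls, beside 1.17% of all members called in DBTRG-05MG. They were 12.3% of the DBTRG-05MG calls, beside 4.12% of all members called in U87MG. These counts moved with single libraries. The U87MG calls numbered 746 without U87MG Vec replicate 1 and 249, 269 and 264 without U87MG Vec replicate 2, U87MG Vec replicate 3 and U87MG WWOX replicate 2. The DBTRG-05MG calls numbered 58 without DBTRG-05MG Vec replicate 1 and 69, 60 and 74 without DBTRG-05MG WWOX replicates 1, 2 and 3. Without U87MG WWOX replicate 2 there were 174 called differences. The typical standard error of a member was 0.255 in either line and 0.36 for the difference.

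**Figure D1:**
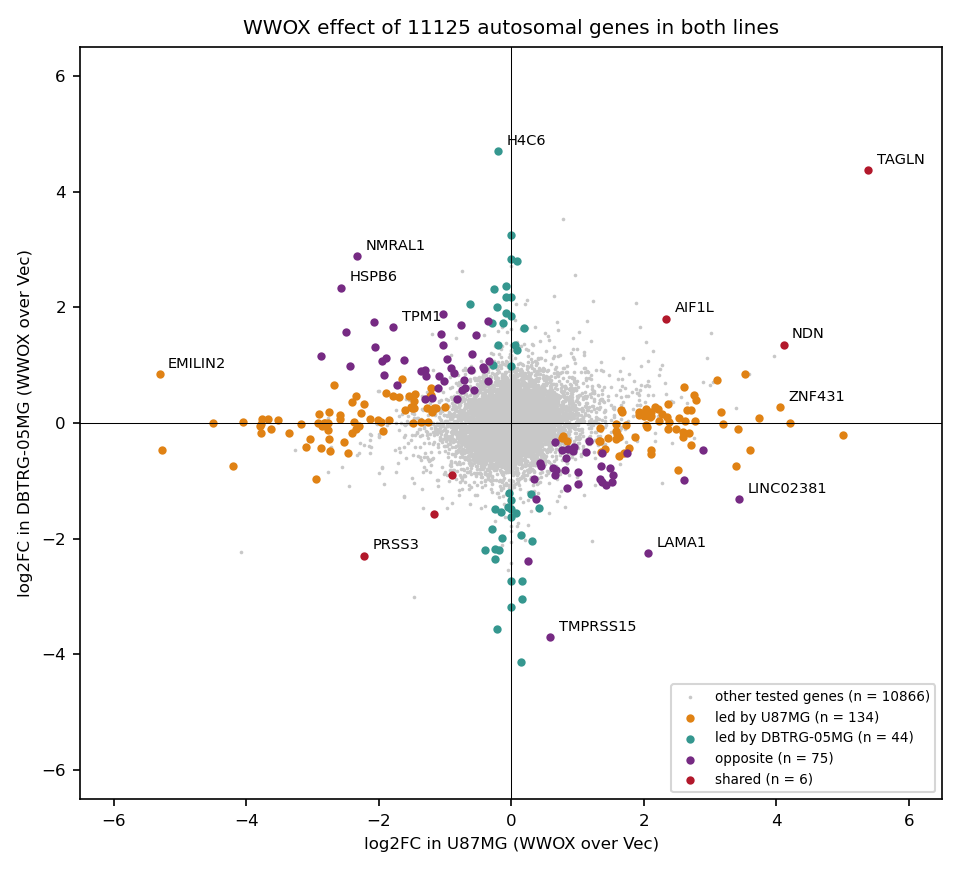
Log2 fold change of each of the 11125 members in U87MG (horizontal axis) and in DBTRG-05MG (vertical axis), WWOX over Vec, with the called classes in colour. Most members sit near the origin, the genes led by 1 line lie along that line's axis, and the 75 opposite genes lie at the upper left and lower right.

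Over all members the signs of the effects were the same for 56.4%, and across genes the effects correlated with Pearson's r = 0.144 and Spearman's rho = 0.187; this is a description across 11125 genes measured in the same libraries, and genes are not independent replicates. Among the 458 genes called in U87MG, 242 (52.8%) had the same sign in DBTRG-05MG, and among the 130 called in DBTRG-05MG, 56 (43.1%) had the same sign in U87MG. The genes that moved most in either line were thus no more often alike in sign than the members at large.

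The 6 genes that changed the same way in both lines made up 0.0539% of the members. TAGLN, NDN and AIF1L rose, and PRSS3, AP1M2 and FOSL1 fell. TAGLN (chr11:117199370-117207464) encodes transgelin, an actin-binding protein of smooth muscle. Its level was 0.497, 0.386 and 0.701 CPM in U87MG Vec against 81.0, 29.2 and 31.2 CPM in U87MG WWOX, and 1.64, 1.03 and 1.32 CPM in DBTRG-05MG Vec against 20, 38.3 and 77.3 CPM in DBTRG-05MG WWOX. All 6 WWOX libraries lay at least an order of magnitude above all 6 Vec libraries. The log2 fold change was 5.39 in U87MG and 4.37 in DBTRG-05MG (SE 0.45 each; adjusted p = 7.77e-06 and 0.000199), and the difference of 1.02 ± 0.64 missed the threshold (adjusted p = 0.579).

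NDN (chr15:23685400-23687305) encodes necdin, a growth suppressor of the MAGE family. Its Vec level was 1.21, 0.850 and 1.61 CPM in U87MG but 12.4, 6.95 and 14.2 CPM in DBTRG-05MG. With WWOX it reached 23.7, 30.5 and 34.3 CPM in U87MG and 25.1, 28.4 and 35.6 CPM in DBTRG-05MG. The Vec levels of the lines did not overlap, whereas their WWOX levels did. NDN was the sole gene called both as shared and as different in size, with log2 fold changes of 4.11 and 1.35 and a difference of 2.75 ± 0.39 (adjusted p = 0.00133 by limma, and p = 0.12 by the exact permutation test within lines).

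AIF1L, an actin-bundling protein, rose from 0.710, 0.695 and 1.40 CPM to 6.73, 6.65 and 6.61 CPM in U87MG. In DBTRG-05MG it rose from 5.24, 8.18 and 4.41 CPM to 26.8, 20.2 and 20.6 CPM. Of the DBTRG-05MG Vec libraries 1 lay above the WWOX libraries of U87MG and the others below them, and the changes of 2.34 and 1.80 on the log2 scale differed by 0.53 ± 0.37 (adjusted p = 0.638).

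Among the genes that fell in both lines, PRSS3 encodes mesotrypsin, a serine protease. It went from 39.7, 26.0 and 61 CPM to 10.8, 8.62 and 6.78 CPM in U87MG and from 10.9, 14 and 12.8 CPM to 2.54, 2.72 and 1.58 CPM in DBTRG-05MG. The log2 fold changes of -2.22 and -2.29 lay within 0.07 ± 0.38 of each other, with a 95% interval for the difference of -0.74 to 0.89. FOSL1, which encodes the AP-1 subunit FRA1, went from 552, 664 and 774 CPM to 305, 393 and 426 CPM in U87MG and from 250, 269 and 310 CPM to 179, 144 and 139 CPM in DBTRG-05MG. Its changes of -0.89 and -0.90 (adjusted p = 0.02 and 0.0440) left a difference of 0.01 ± 0.28 with a 95% interval of -0.59 to 0.61. AP1M2, a clathrin adaptor subunit of epithelial cells, was low: 0.568, 0.309 and 1.12 CPM in U87MG Vec against 0, 0.0679 and 0 CPM in U87MG WWOX, and 3.80, 6.44 and 4.15 CPM against 1.18, 0.972 and 1.71 CPM in DBTRG-05MG. Its fitted changes were -1.17 and -1.58, and in U87MG, where all WWOX libraries were under the floor, the size depends on the pseudocount.

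**Figure D2:**
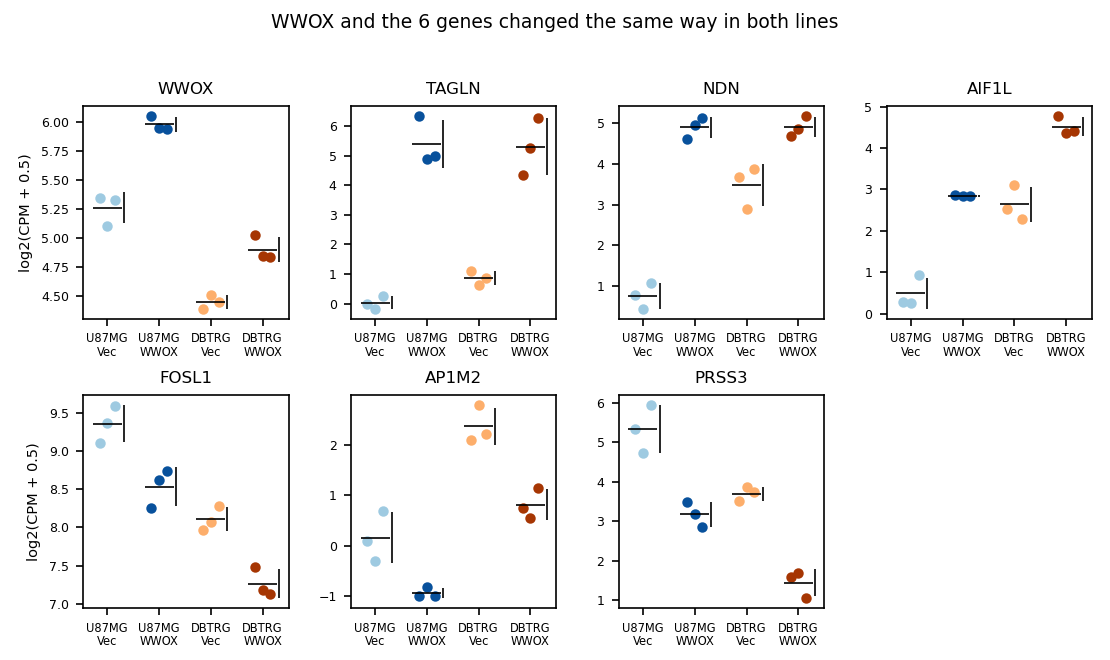
Level of WWOX and of the 6 genes changed the same way in both lines, in log2(CPM + 0.5), for the 3 libraries (points) of each of the 4 groups, with the group mean (horizontal bar) and SD (vertical bar). TAGLN goes from under 2 CPM in all 6 Vec libraries to about 20 CPM or above in all 6 WWOX libraries, and PRSS3 and FOSL1 fall in both lines.

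Leaving out any 1 library kept both signs of all 6 shared genes. Their Vec and WWOX libraries did not overlap in either line, so a sign could hardly turn in such fits. TAGLN, PRSS3 and AIF1L stayed called in both lines without any 1 library, whereas NDN did so in 6 of 12 such fits and FOSL1 in 2 of 12. AP1M2, which passes the minimum level in 11 of these fits, did so in 2.

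A wider count of concordant genes, chosen with the values in view, was set beside the opposite genes: the average of both effects called, and the Vec and WWOX libraries not overlapping in either line, in the same direction. It held 82 members (0.737%), 40 higher and 42 lower with WWOX, and 224 without U87MG Vec replicate 1, 140 without DBTRG-05MG Vec replicate 2, 135 without U87MG WWOX replicate 3 and 53 to 54 without U87MG Vec replicate 2 or 3 or DBTRG-05MG WWOX replicate 2. Without regard to any call, the libraries of both variants were apart for 17.3% of the members in U87MG and 20.1% in DBTRG-05MG. They were apart in the same direction in both lines for 203 members (1.82%) and in opposite directions for 175 (1.57%). Concordant and opposite separation were therefore about as frequent. With 3 libraries against 3, some members are apart in a line without any effect of WWOX. Counts of this order would also arise if separation in 1 line were unrelated to that in the other, so they are a description. The examples that follow were chosen after their values were seen. RNASE1, a secreted ribonuclease, went from 9.16, 11.1 and 9.75 CPM to 0.489, 0.136 and 0 CPM in U87MG and from 6.81, 1.03 and 7.77 CPM to 0.0590, 0.778 and 0.685 CPM in DBTRG-05MG. CXCL14, a chemokine, changed by -1.47 in U87MG and -3.01 in DBTRG-05MG on the log2 scale, and SLIT3, a ligand of ROBO guidance receptors, by 1.24 and 2.11. GFPT2, an enzyme of hexosamine synthesis, changed by -0.74 and -1.15. For these genes the average effect passed the test, with adjusted p between 0.000295 and 0.00312, while the effect within a line did not always do so.

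In 75 members (0.674%) the response was opposite: the difference was called, the signs differed, and Vec and WWOX libraries did not overlap in either line. In 34 of them the level was higher with WWOX in U87MG and lower in DBTRG-05MG, and in 41 the reverse held. The change was called within U87MG for 45, within DBTRG-05MG for 22 and within neither for 18, and 19 changed at least 2-fold in both lines. The median size of the change was 1.02 in U87MG and 0.92 in DBTRG-05MG on the log2 scale. In 10 genes the opposite changes passed the threshold in both lines: NMRAL1, HSPB6, TPM1, PADI2, GRTP1, FUCA2, GGT1 and LRIG1 fell in U87MG and rose in DBTRG-05MG, and LAMA1 and LINC02381 did the reverse.

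NMRAL1 (chr16:4461691-4495763), which encodes a sensor of the NADPH to NADP balance, had the largest difference of these 10. Its level was 59.0, 76.2 and 75.9 CPM in U87MG Vec against 13.0, 13.8 and 16.1 CPM in U87MG WWOX. In DBTRG-05MG it was 14.1, 9.27 and 12.1 CPM in Vec against 85.8, 84.0 and 111 CPM in WWOX. The high variant of either line thus lay above the low variant of both, and the lines exchanged levels. The changes were -2.32 and 2.88, and the difference was -5.20 ± 0.31 (adjusted p = 1.2e-06).

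HSPB6, a small heat shock protein of muscle, went from 52.3, 61.4 and 29.5 CPM to 7.83, 5.63 and 10.1 CPM in U87MG. In DBTRG-05MG it went from 1.64, 0.773 and 2.11 CPM to 7.55, 10.3 and 11.8 CPM. The WWOX libraries of both lines overlapped, and the Vec libraries lay on either side of them. TPM1, tropomyosin 1, a protein of actin filaments, behaved alike: it went from 380, 637 and 544 CPM to 140, 167 and 159 CPM in U87MG and from 37.3, 34.1 and 49.2 CPM to 122, 119 and 159 CPM in DBTRG-05MG. The differences were -4.91 ± 0.50 (adjusted p = 8.28e-05) and -3.44 ± 0.33 (adjusted p = 4.92e-05). FUCA2, a secreted fucosidase, fell from 164, 155 and 191 CPM to 46.1, 49.7 and 82.6 CPM in U87MG and rose from 75.2, 78.0 and 72.9 CPM to 186, 149 and 168 CPM in DBTRG-05MG, a difference of -2.70 ± 0.32. FUCA2, GGT1 and LRIG1 were named because they complete the 10, after their values were seen.

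The 250 bases before the annotated start of 3 of these genes are shown because they differ in the motifs they hold, although their genes moved alike. They come from RefSeq on GRCh38.p14 and run 5′ to 3′ along the gene's strand. Capitals mark matches, on either strand, to TATAAA, to TGANTCA (the motif bound by AP-1) and to CCAAT (read as ATTGG on the other strand).
HSPB6 (chr19:35757030-35757279, minus strand): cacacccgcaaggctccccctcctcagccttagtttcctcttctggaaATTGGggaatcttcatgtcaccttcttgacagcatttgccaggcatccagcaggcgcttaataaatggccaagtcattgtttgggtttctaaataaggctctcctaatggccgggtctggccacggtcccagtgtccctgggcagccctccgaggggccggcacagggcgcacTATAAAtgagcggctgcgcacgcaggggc
FUCA2 (chr6:143511721-143511970, minus strand): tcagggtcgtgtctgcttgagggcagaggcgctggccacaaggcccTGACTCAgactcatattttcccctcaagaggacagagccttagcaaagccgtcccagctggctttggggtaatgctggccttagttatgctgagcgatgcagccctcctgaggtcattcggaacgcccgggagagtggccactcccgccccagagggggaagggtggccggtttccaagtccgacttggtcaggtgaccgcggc
TPM1 (chr15:63048239-63048488, plus strand): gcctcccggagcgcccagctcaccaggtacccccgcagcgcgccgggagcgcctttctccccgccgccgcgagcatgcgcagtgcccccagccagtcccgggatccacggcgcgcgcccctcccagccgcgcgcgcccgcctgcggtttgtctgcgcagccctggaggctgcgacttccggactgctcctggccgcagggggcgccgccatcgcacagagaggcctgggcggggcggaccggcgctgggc
HSPB6 holds TATAAA 29 bases before the start and CCAAT 202 bases before it, FUCA2 holds TGANTCA, as TGACTCA, 204 bases before the start, and the TPM1 window holds none of the 3 motifs. TGANTCA was in a window of 13 of the 53 opposite genes with a RefSeq promoter (24.5%) and of 555 of the 8874 members with one (6.25%); counted over windows, since a gene can have several, it was in 15 of 87 (17.2%) against 602 of 13114 (4.59%). The 13 genes were CASP8, DMKN, FST, FUCA2, HDAC9, HLA-DPB1, LAMB3, LINC01173, LRIG1, OSBP2, PLEKHG4, PSORS1C1 and TMPRSS15. Among the concordant genes it was in 4 of 61 (6.56%), and among genes led by U87MG in 4 of 54 (7.41%) in either direction, among those led by DBTRG-05MG in 3 of 27 (11.1%), and among the shared genes in 1 of 3. These shares are descriptions of letters in a window and were not tested. The levels are per gene, so they do not show which start was used.

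**Figure D3:**
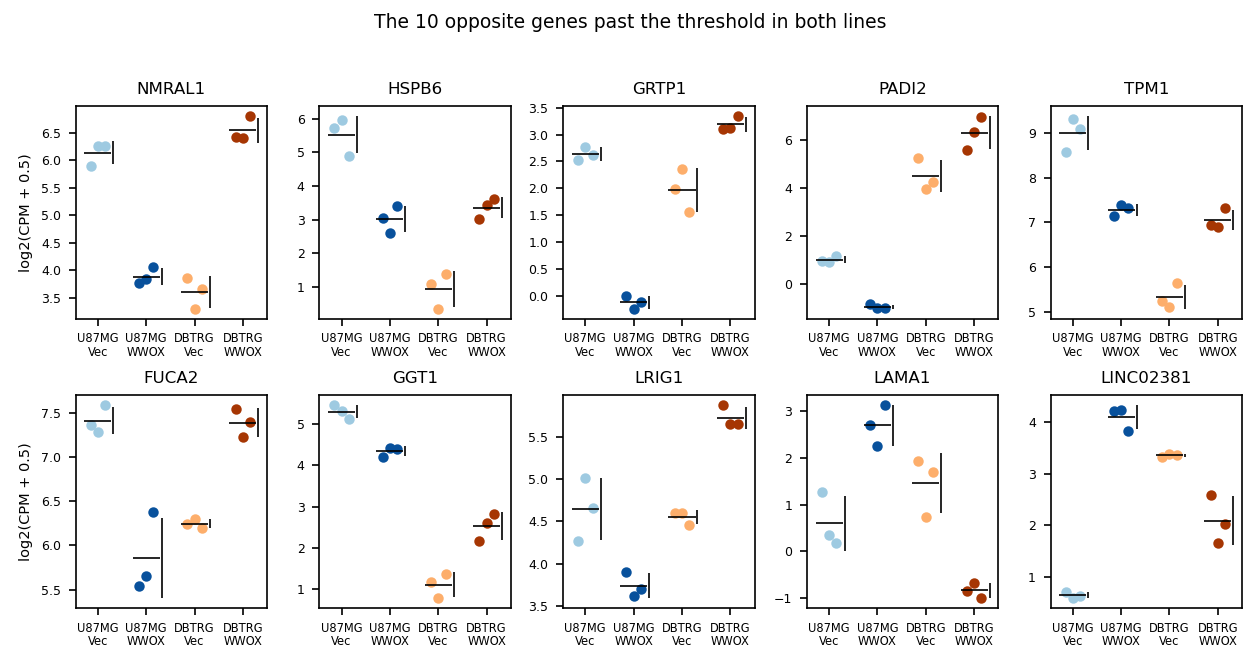
Level of the 10 genes with called changes of opposite sign, in log2(CPM + 0.5), for the 3 libraries (points) of each of the 4 groups, with the group mean (horizontal bar) and SD (vertical bar). In 8 panels U87MG falls and DBTRG-05MG rises, and in LAMA1 and LINC02381 the reverse is seen.

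LAMA1 encodes the α1 chain of laminin 111, a basement membrane protein. Its level was 1.92, 0.773 and 0.631 CPM in U87MG Vec against 6.0, 4.28 and 8.21 CPM in U87MG WWOX. In DBTRG-05MG it was 3.34, 1.16 and 2.77 CPM in Vec against 0.0590, 0.130 and 0 CPM in WWOX, all at or under 3 tags. The difference was 4.31 on the log2(CPM + 0.5) scale (adjusted p = 0.000399), and its size in DBTRG-05MG depends on the pseudocount. LINC02381, a long non-coding RNA, went from 1.14, 1.00 and 1.05 CPM to 18.2, 18.5 and 13.8 CPM in U87MG and from 9.49, 9.98 and 9.81 CPM to 5.54, 2.66 and 3.56 CPM in DBTRG-05MG. The Vec libraries of each line were tightly grouped, and the order of the lines turned over with WWOX.

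PADI2, a peptidylarginine deiminase, went from 1.42, 1.39 and 1.75 CPM to 0.0612, 0 and 0 CPM in U87MG, while in DBTRG-05MG it went from 36.9, 15.1 and 18.6 CPM to 47.1, 80.2 and 123 CPM. GRTP1, a RabGAP domain protein, fell by 2.87 in U87MG and rose by 1.16 in DBTRG-05MG on the log2 scale. Both genes were at much lower levels in U87MG WWOX than in any other group. GGT1, a γ-glutamyltransferase of glutathione turnover, changed by -1.02 and 1.35, and LRIG1, a negative regulator of receptor tyrosine kinases, by -0.97 and 1.11.

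In the remaining opposite genes with the largest smaller change, the effect passed the test in U87MG alone for most. TSPAN15, a tetraspanin partner of ADAM10, changed by -2.49 (adjusted p = 0.00115) and 1.57 (adjusted p = 0.0647), TENM2, a teneurin of synaptic adhesion, by -2.05 and 1.31, and KIF6, a kinesin, by -1.89 and 1.13. In the other direction TBX3, a T-box repressor, went from 4.12, 2.16 and 3.23 CPM to 25.5, 14.4 and 29.5 CPM in U87MG and from 2.75, 1.48 and 1.91 CPM to 1.06, 0.583 and 0.754 CPM in DBTRG-05MG. The Vec libraries of the lines overlapped in TBX3, and the WWOX libraries were far apart. SIGLEC15, an immune checkpoint lectin, changed by 1.37 and -1.02, HIP1R, an endocytic adaptor, by 1.33 and -0.97, and DMKN, an epithelial secreted protein, by 1.42 and -1.07. ARC, an immediate-early gene of neurons, changed by 1.01 and -1.06 with no call in either line, and its difference of 2.06 passed (adjusted p = 0.0137). ALDH1L1, a folate enzyme used as an astrocyte marker, had 0 tags in all U87MG Vec libraries and 0.551, 1.36 and 0.847 CPM in U87MG WWOX, where the mean of 0.918 CPM was at least 3.96-fold higher than 3 tags per library would allow. In DBTRG-05MG it went from 5.24, 4.25 and 2.57 CPM to 1.71, 1.88 and 1.58 CPM.

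TMPRSS15, the gene of enteropeptidase, shows how the class reaches past such pairs, and was named after its values were seen. It went from 18.1, 11 and 16.6 CPM to 30.1, 23.6 and 18.9 CPM in U87MG and from 13.4, 17.4 and 12.4 CPM to 0.354, 0.907 and 0.685 CPM in DBTRG-05MG. The Vec levels of the lines overlapped. Its change was 0.59 in U87MG (adjusted p = 0.304) and -3.70 in DBTRG-05MG (adjusted p = 7.27e-06), so most of the difference of 4.29 was in DBTRG-05MG. All 75 opposite genes kept both signs under all other settings and without any 1 library that tested them, with 34 called under every other setting and 45 without any 1 library. These genes were chosen for libraries that do not overlap in either line. Leaving out 1 library could then hardly turn a sign, so the kept signs are no test of stability.

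In 134 members the effect was led by U87MG: the difference and the U87MG change were called and the change in DBTRG-05MG was not. The Vec and WWOX libraries of U87MG also had to be without overlap. The difference was positive in 66 and negative in 68. In 15 of them the gene was at or under 3 tags in all 6 DBTRG-05MG libraries, where a change could not have been seen, and in the other 119 the median size of the change in DBTRG-05MG was 0.243 on the log2 scale, with 47 sharing the sign of U87MG. In 44 members the effect was led by DBTRG-05MG by the mirror of this rule, 24 with a positive and 20 with a negative difference. Here 26 were at or under 3 tags in all 6 U87MG libraries, and in the other 18 the median size in U87MG was 0.213. Of the 44 genes led by DBTRG-05MG, 26 were thus genes that U87MG did not express at this depth, so their response could not be compared between the lines. Of all 11125 members, 403 were at or under 3 tags in all 6 U87MG libraries and 129 in all 6 DBTRG-05MG libraries. Such a member reached the minimum level through the other line alone, so these counts are a description. Both classes were chosen for a called difference and no call in the other line. The small changes and the signs there therefore follow in part from the choice.

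Among the genes that rose in U87MG with the largest differences, SYT13, a synaptotagmin, went from 0.0710, 0.0773 and 0 CPM to 26.6, 18.8 and 8.89 CPM in U87MG while no DBTRG-05MG library had more than 3 tags of it. NLRP12, a NOD-like receptor, went from 0.142, 0 and 0.0701 CPM to 9.30, 8.42 and 11.2 CPM in U87MG and had no tag in DBTRG-05MG. COL13A1, a transmembrane collagen, was instead lowest in U87MG Vec, at 0.213, 0.309 and 0.491 CPM, against 12.1, 10.1 and 4.23 CPM in U87MG WWOX, 10.0, 4.06 and 18 CPM in DBTRG-05MG Vec and 3.30, 8.16 and 5.83 CPM in DBTRG-05MG WWOX. ADGRE1, an adhesion receptor of macrophages, changed by 3.61 and -0.47, and LINC00839, a long non-coding RNA, by 3.74 and 0.08.

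Among the genes that fell in U87MG, EMILIN2, an elastin interface glycoprotein, went from 54.9, 84.2 and 71.6 CPM to 5.38, 0.475 and 0.678 CPM in U87MG and from 1.37, 0.837 and 0.263 CPM to 2.95, 1.30 and 1.58 CPM in DBTRG-05MG. Its difference of -6.15 ± 0.78 was the largest of the negative ones. TWIST2, a helix-loop-helix factor of mesenchymal cells, went from 6.53, 7.03 and 5.47 CPM to 0.184, 0 and 0 CPM in U87MG, while DBTRG-05MG held 11.6 to 13.7 CPM in Vec and 13.6 to 14.5 CPM in WWOX. HSBP1L1 followed the same course, with changes of -3.77 and -0.01, and GSTM5, a glutathione transferase with close paralogs that could share tags, changed by -4.05 and 0.02. EPS15P1, a pseudogene, also belongs here, with a difference of -4.50.

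Some of the genes called in U87MG appeared or vanished with WWOX. Of the 220 genes that rose in U87MG, 40 (18.2%) were at or under 3 tags in all 3 Vec libraries, and 32 of these 40 reached 5 CPM in at least 1 DBTRG-05MG library, with a median level of 5.72 CPM there. Of the 238 that fell, 15 (6.30%) were at or under 3 tags in all 3 WWOX libraries. In DBTRG-05MG the same held for 1 of the 65 genes that rose and 2 of the 65 that fell. A member that is low in U87MG Vec often entered the analysis through its level in DBTRG-05MG, so these counts are a description. The share of all members at this floor in each group is not given here, so no excess among the calls is claimed.

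The zinc finger genes of chromosome 19 stood out in that group and were listed after their values were seen. Most of these genes encode KRAB zinc finger proteins, repressors that silence transposable elements, and they lie in clusters of similar copies, so tags of near-identical starts could be split between them. Of the 155 ZNF genes of chromosome 19 that were members, 20 rose and 4 fell in U87MG (15.5% called, against 4.12% of all members), and none was called in DBTRG-05MG. The difference was called for 13, higher in U87MG for 12 (7.74%, against 1.14% of all members) and lower for ZNF296. The 12 were ZNF431, ZNF726, ZNF765, ZNF671, ZNF85, ZNF599, ZNF528, ZNF558, ZNF253, ZNF562, ZNF56P and ZNF329. In U87MG Vec they ranged from 0 to 1.35 CPM, with 8 of them at or under 3 tags in all 3 libraries, and in U87MG WWOX from 1.10 to 12.7 CPM. In DBTRG-05MG they ranged from 2.58 to 29.4 CPM in Vec and from 3.29 to 42.1 CPM in WWOX. Their log2 fold changes were 1.92 to 4.05 in U87MG and -0.25 to 0.27 in DBTRG-05MG. Of the other 642 members on chromosome 19, 16 rose and 12 fell in U87MG, and of 182 ZNF genes of other autosomes 12 rose and 4 fell. The median effect of the 155 genes was 0.06 in U87MG and 0.09 in DBTRG-05MG, beside -0.01 and 0.01 over all members. By limma 1 of the 155 had an unadjusted p under 0.05 in DBTRG-05MG, and edgeR, limma-voom and DESeq2 called none there. Without any 1 library 8 to 13 of them had a called positive difference, the lowest number without DBTRG-05MG WWOX replicate 2.

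ZNF431 (chr19:21142024-21196053) was at 0.142, 0.155 and 0.210 CPM in U87MG Vec against 7.83, 10.9 and 12.7 CPM in U87MG WWOX. In DBTRG-05MG it was at 12.8, 17.5 and 13.0 CPM in Vec and 24.2, 13.7 and 17.9 CPM in WWOX. The difference was 3.78 ± 0.38 (adjusted p = 7.69e-05). ZNF85, which lies nearby on the chromosome, was at 0, 0 and 0.140 CPM against 3.18, 2.71 and 2.29 CPM in U87MG, and between 3.67 and 8.32 CPM in DBTRG-05MG. ZNF296 went the other way in U87MG, from 1.63, 2.40 and 3.93 CPM to 0.122, 0.204 and 0.0847 CPM.

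The 250 bases before the starts of ZNF431 and ZNF85 are shown because of how alike they are, from RefSeq on GRCh38.p14, 5′ to 3′ along the plus strand, with CCAAT in capitals.
ZNF431 (chr19:21141790-21142039, plus strand): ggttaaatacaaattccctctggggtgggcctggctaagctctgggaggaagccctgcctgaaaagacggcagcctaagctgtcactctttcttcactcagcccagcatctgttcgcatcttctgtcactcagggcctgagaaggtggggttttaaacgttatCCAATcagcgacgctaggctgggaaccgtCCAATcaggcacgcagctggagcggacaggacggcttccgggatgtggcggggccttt
ZNF85 (chr19:20923001-20923250, plus strand): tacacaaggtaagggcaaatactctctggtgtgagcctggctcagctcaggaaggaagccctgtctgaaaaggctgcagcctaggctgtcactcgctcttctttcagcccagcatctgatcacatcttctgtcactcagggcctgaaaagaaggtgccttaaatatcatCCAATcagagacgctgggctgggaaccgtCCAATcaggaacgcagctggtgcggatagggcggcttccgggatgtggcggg
With ZNF85 shifted by 6 bases, 207 of 244 aligned bases were identical (84.8%), with a longest shared run of 24 bases. Each window holds 2 CCAAT motifs, at 87 and 58 bases before the start in ZNF431 and at 81 and 52 in ZNF85. CCAAT was in a window of 42.1% of the members with a promoter and of 5 of the 10 genes of this group that had one.

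Among the genes led by DBTRG-05MG that fell there, PAX2, a paired box factor of kidney and midbrain, went from 17.0, 8.56 and 30.8 CPM to 0.531, 0.648 and 0.274 CPM, and FOXF1, a forkhead factor of lung and gut mesenchyme, from 15.5, 11.6 and 5.86 CPM to 0.531, 0.324 and 0.343 CPM. FENDRR, the long non-coding RNA that lies beside FOXF1 on the opposite strand, fell with it, from 6.22, 2.77 and 2.24 CPM to 0, 0.0648 and 0.137 CPM. WNT7A, a WNT ligand, went from 25.2, 29.0 and 29.6 CPM to 4.19, 3.76 and 3.84 CPM. These 4 genes were at or under 3 tags in all 6 U87MG libraries, as was SMOC2, a matricellular protein that went from 9.89, 3.15 and 6.92 CPM to 0.0590, 0.389 and 0.206 CPM in DBTRG-05MG.

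Of the genes that rose in DBTRG-05MG, H4C6, a histone H4 gene with near-identical copies, went from 3.34, 2.25 and 3.95 CPM to 85.6, 96.9 and 113 CPM. ADA2, a secreted adenosine deaminase, went from 1.83, 0.644 and 1.98 CPM to 14.5, 23.7 and 18 CPM, and SLC2A10, a glucose transporter, from 2.42, 2.90 and 1.19 CPM to 11.9, 14.1 and 13.0 CPM. MUC4, a membrane mucin, rose to 4.31, 7.0 and 2.67 CPM and SERPINA5, the protein C inhibitor, to 2.54, 5.12 and 5.76 CPM, both from under 0.4 CPM. None of these 5 exceeded 3 tags in a U87MG library. LCP1, the actin-bundling protein plastin 2, was expressed in both lines: it stayed at 13.1, 10.8 and 13.3 CPM against 13.0, 11.3 and 3.64 CPM in U87MG and went from 5.17, 8.05 and 4.28 CPM to 37.9, 25.2 and 19.1 CPM in DBTRG-05MG (difference -2.69 ± 0.55, adjusted p = 0.0172).

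The exact two-sided permutation test of the difference within lines gave p = 0.005 for each of the 16 opposite genes named by rule. These genes were chosen for libraries that do not overlap in either line, in opposite directions. That choice fixes this p at its lowest possible value, so it adds no support for them. Among the 24 genes led by 1 line and named by rule, it gave 0.01 to 0.05 for 12. It gave 0.06 to 0.1 for NLRP12, ZNF431, LINC00839, H2BC6, EPS15P1, HSBP1L1, FOXF1, SMOC2, WNT7A, ADA2, MUC4 and SERPINA5. For a gene without tags in 1 line, the 3 libraries against 3 of the other line alone decide this test, and it cannot go below 0.1. The genes led by 1 line were chosen for libraries of that line that do not overlap, and for large differences. That choice holds this p low, so it adds no independent support for them either.

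The cholesterol synthesis genes had mostly positive effects in U87MG and mostly negative ones in DBTRG-05MG. This pathway builds sterols from acetyl-CoA and is switched on by the factor SREBP2 when cells lack cholesterol. Of 21 members tested, 20 had a positive log2 fold change in U87MG and 5 in DBTRG-05MG, and all 21 had a positive difference, against 47% and 50.9% of all members with a positive change in U87MG and DBTRG-05MG and 47.8% with a positive difference. The median was 0.57 in U87MG, -0.39 in DBTRG-05MG and 1.08 for the difference, beside -0.01, 0.01 and -0.02 over all members. In U87MG 5 genes rose and none fell, beside 1.98% of all members that rose. In DBTRG-05MG none rose and 1 fell, beside 0.584% of all members that fell. The difference was called for 4 of the 21 (19%, against 2.36% of all members), all positive. These shares were not tested. The median of the difference stayed between 0.864 and 1.32 without any 1 library, but the number called ranged from 0 to 8. The median in DBTRG-05MG ranged from -0.409 to -0.149, nearest to 0 without DBTRG-05MG WWOX replicate 1, and that in U87MG from 0.368 (without U87MG Vec replicate 3) to 0.827 (without U87MG Vec replicate 2).

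HMGCS1, the synthase at the entry of the pathway, went from 24.9, 39.5 and 20.3 CPM to 103, 106 and 79.4 CPM in U87MG. In DBTRG-05MG it was 11.8, 18.5 and 17.8 CPM in Vec and 17.0, 16.5 and 14.6 CPM in WWOX. It rose in U87MG alone, with a difference of 1.77 ± 0.38 (adjusted p = 0.022). HSD17B7, a later enzyme of the pathway, changed by 1.35 and -0.50.

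The 250 bases before the starts of HMGCS1 (from the second of its RefSeq starts) and MVD are shown because they hold several CCAAT motifs. MVD, mevalonate decarboxylase, was chosen after its values were seen, and changed by 1.64 (adjusted p = 0.0184) and -0.13. Capitals mark TATAAA and, on either strand, the CCAAT motif, and the sequences come from RefSeq on GRCh38.p14, 5′ to 3′ along the gene's strand.
HMGCS1 (chr5:43313413-43313662, minus strand): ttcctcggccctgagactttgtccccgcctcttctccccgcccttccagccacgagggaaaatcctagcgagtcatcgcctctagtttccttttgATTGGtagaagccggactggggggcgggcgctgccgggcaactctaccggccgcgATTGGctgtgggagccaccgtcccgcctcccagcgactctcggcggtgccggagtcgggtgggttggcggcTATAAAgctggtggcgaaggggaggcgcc
MVD (chr16:88663092-88663341, minus strand): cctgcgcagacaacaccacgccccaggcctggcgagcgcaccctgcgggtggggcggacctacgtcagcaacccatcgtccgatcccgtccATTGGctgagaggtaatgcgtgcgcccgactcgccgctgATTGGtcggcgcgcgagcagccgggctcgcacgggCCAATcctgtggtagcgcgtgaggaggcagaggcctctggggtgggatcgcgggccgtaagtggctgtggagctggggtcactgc
The HMGCS1 window shown holds TATAAA 29 bases before the start and CCAAT at 155 and 100 bases, and MVD holds CCAAT at 159, 120 and 85 bases. The window of the other HMGCS1 start holds neither motif. Of the 15 cholesterol genes with a RefSeq promoter, 13 held CCAAT (86.7%), against 42.1% of the 8874 members with one; over windows the shares were 75% of 20 and 33% of 13114.

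The output genes of AP-1 and MAPK signalling were shifted apart in the same sense, with a median of 0.28 in U87MG, -0.27 in DBTRG-05MG and 0.67 for the difference over 26 members. The change was positive for 18 in U87MG and for 8 in DBTRG-05MG. Without 1 library the median in U87MG ranged from 0.152 (without U87MG Vec replicate 3) to 0.304, that in DBTRG-05MG from -0.433 (without DBTRG-05MG Vec replicate 2) to -0.0986 (without DBTRG-05MG WWOX replicate 1), and 1 to 9 differences were called. The difference was called for 4 (15.4%, against 2.36% of all members). DUSP4, PHLDA1 and ETV4 had the higher WWOX effect in U87MG and FOSL2 the lower. PHLDA1, an ERK-induced gene, was 222, 200 and 305 CPM against 256, 247 and 229 CPM in U87MG and went from 950, 790 and 877 CPM to 418, 437 and 325 CPM in DBTRG-05MG. ETV4, an ETS factor, changed by -0.16 and -1.54 (adjusted p = 0.814 and 0.00209). DUSP4, a phosphatase that ends MAPK signalling, went from 40.7, 29.1 and 44.9 CPM to 72.2, 68.0 and 74.7 CPM in U87MG and from 145, 195 and 163 CPM to 131, 130 and 119 CPM in DBTRG-05MG. FOSL2, an AP-1 subunit, had changes of -0.69 and 0.75 with overlapping libraries in U87MG. The AP-1 subunit FOSL1, in contrast, fell in both lines, as given above.

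Genes of the matrix and of adhesion differed singly, in both directions within a list. Of 22 integrin and laminin genes the difference was called for 5 (22.7%, against 2.36% of all members). Among them the effect of LAMA1, LAMB3 (0.45 and -0.74) and ITGA11 (2.78 and 0.04) was higher in U87MG, and that of ITGA6 (-1.54 and 0.46) was lower. ITGA11, a collagen-binding integrin, went from 0.0710, 0 and 0.140 CPM to 5.75, 1.97 and 2.88 CPM in U87MG, while ITGA6, a laminin receptor, went from 1.99, 0.927 and 0.982 CPM to 0.184, 0.0679 and 0.169 CPM there and stood between 53.9 and 121 CPM in DBTRG-05MG. Of 29 collagens and matrix glycoproteins, COL13A1 was higher and EMILIN2, FBLN5 and COL1A1 were lower (13.8% called). COL1A1 was 157, 500 and 405 CPM in U87MG Vec against 147, 59.1 and 77.0 CPM in U87MG WWOX, and under 2 CPM in DBTRG-05MG. The call of its difference held in 4 of 12 fits without 1 library. The other 4 fibroblast markers had positive changes in U87MG, of which that of LUM (2.89, adjusted p = 0.0125) passed the test and those of DCN (1.50), FAP (0.47) and PDGFRB (0.02) did not.

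The contractile and SRF target genes, of which 22 were tested, held the strongest shared gene, TAGLN, and a strong opposite gene, TPM1. TPM2, tropomyosin 2, went from 16.8, 22.1 and 25.8 CPM to 5.32, 2.24 and 4.07 CPM in U87MG, and in DBTRG-05MG it was 545, 486 and 543 CPM against 324, 323 and 522 CPM. The changes of -2.46 and -0.53 differed by -1.93 ± 0.40 (adjusted p = 0.0176). No member of this list had a called positive difference, and 2 had a called negative one (9.09%, against 2.36% of all members). The median was -0.09 in U87MG and 0.03 in DBTRG-05MG.

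Of the 24 NF-kB response and cytokine genes, CXCL1 and TNFAIP3 had a called lower effect in U87MG (8.33%, against 2.36% of all members with a called difference). CXCL1, a neutrophil chemokine, went from 9.23, 6.95 and 8.28 CPM to 1.71, 1.43 and 1.10 CPM in U87MG and was 41.2, 14.6 and 25.4 CPM against 25.2, 26.1 and 38.4 CPM in DBTRG-05MG. TNFAIP3, which ends NF-kB signalling, changed by -1.16 (adjusted p = 0.00865) and 0.26 (adjusted p = 0.702). The list's median of -0.36 in U87MG and 0.01 in DBTRG-05MG moved to -0.0759 in U87MG without U87MG Vec replicate 1.

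Among the 20 WNT ligands, receptors and antagonists, SFRP2, a secreted WNT antagonist, went from 3.05, 3.01 and 1.12 CPM to 18.5, 18.7 and 16.9 CPM in U87MG and stayed at 1.90 CPM or less in DBTRG-05MG. WNT5A, a non-canonical ligand, was opposite: 50.9, 89.5 and 87 CPM against 53.4, 38.9 and 35.9 CPM in U87MG, and 6.94, 4.25 and 6.85 CPM against 11.4, 13.1 and 10.5 CPM in DBTRG-05MG. Of 23 genes of the TGF-β and BMP pathways, FST, the activin antagonist follistatin, was higher (0.84 and -1.13) and BMP4 lower (0.06 and 1.35). Of 18 glial and neural lineage genes, ALDH1L1 and SOX9 (1.70 and -0.51) were higher and SOX11 lower. SOX9, a glial factor, went from 3.48, 1.70 and 3.93 CPM to 12.5, 7.53 and 13.6 CPM in U87MG and lay between 45.2 and 115 CPM in DBTRG-05MG. SOX11, a neuronal factor, was at or under 3 tags in all U87MG libraries and went from 1.37, 1.35 and 0.527 CPM to 13.2, 6.74 and 5.55 CPM in DBTRG-05MG. Of 17 HOX genes HOXB6 was higher (1.75 and -0.52), of 25 NRF2 target genes ABCC2 was lower (-2.67 and 0.66), and of 29 semaphorin and ephrin genes SEMA3C was lower (-0.13 and 1.72). Called differences made up 15% of the WNT list, 8.70% of the TGF-β and BMP list and 16.7% of the lineage list. They made up 5.88% of the HOX list, 4% of the NRF2 list and 3.45% of the semaphorin and ephrin list, against 2.36% of all members. These shares were not tested.

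**Figure D4:**
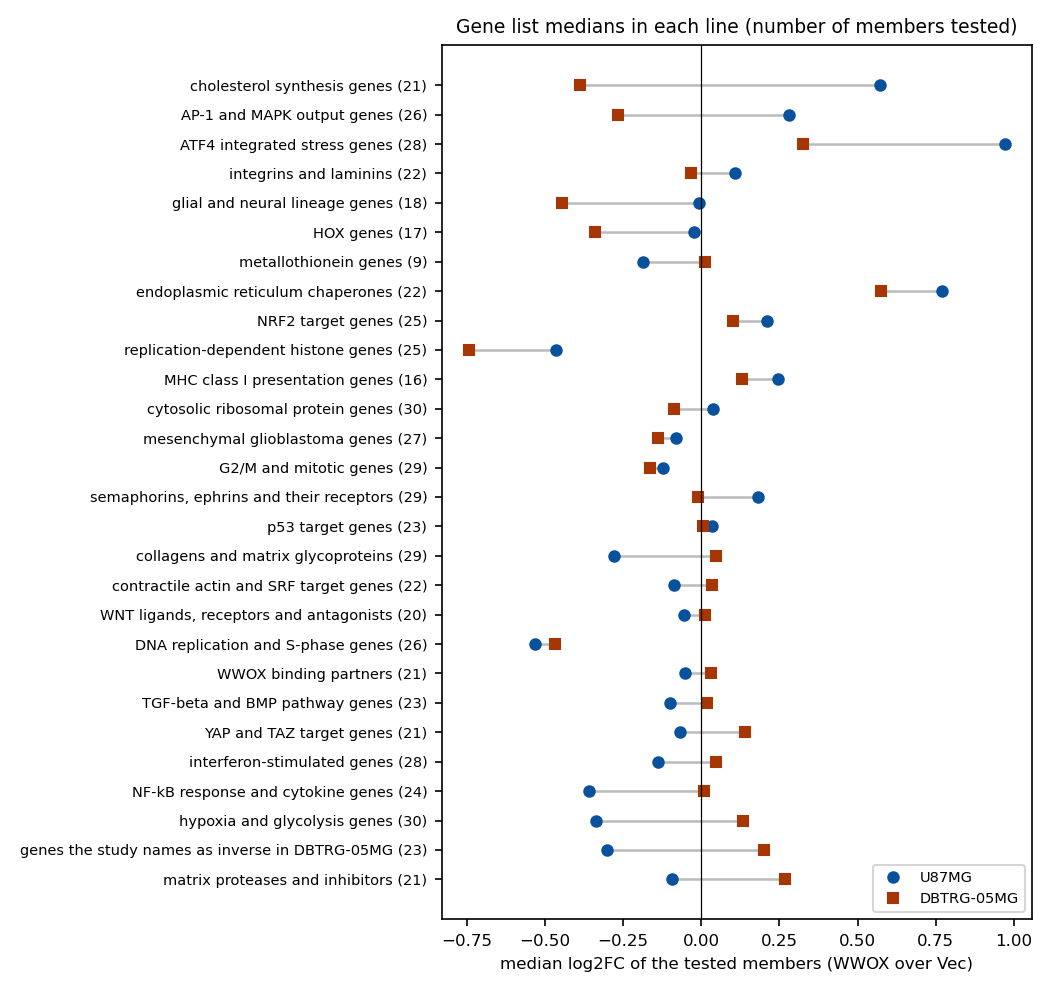
Median log2 fold change (WWOX over Vec) of the tested members of each gene list in U87MG (circles) and DBTRG-05MG (squares), with the number tested in brackets. The cholesterol synthesis genes stand at 0.57 and -0.39, the endoplasmic reticulum chaperones at 0.77 and 0.58, and the S-phase genes at -0.53 and -0.47.

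Other lists leaned the same way in both lines without a called member. Of 22 endoplasmic reticulum chaperones, 22 had a positive change in U87MG and 21 in DBTRG-05MG, with medians of 0.77 and 0.58. Of 28 genes of the ATF4 stress response, 23 were positive in either line, with medians of 0.97 and 0.33, and of 26 genes of DNA replication and S phase, 1 and 3 were positive, with medians of -0.53 and -0.47. With all 12 libraries, none of these genes passed limma, edgeR, limma-voom or DESeq2 in either line or for the difference. At an unadjusted p under 0.05 by limma, 3 chaperones, 11 ATF4 genes and 3 S-phase genes differed in U87MG and 0, 2 and 1 in DBTRG-05MG. Their medians moved with single libraries: that of the chaperones in U87MG from 0.402 (without U87MG WWOX replicate 1) to 1.19 (without U87MG Vec replicate 1), and that of the S-phase genes in U87MG from -0.968 (without U87MG Vec replicate 1) to -0.232 (without U87MG Vec replicate 2). The ATF4 median in U87MG ranged from 0.573 (without U87MG Vec replicate 3) to 1.54 (without U87MG Vec replicate 1). In the fits without 1 library, 0 to 7 of the ATF4 genes had a called difference.

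The replication-dependent histone genes had medians of -0.46 and -0.74, with 0 and 1 of 25 positive, and rested on single libraries in U87MG, where the median was -1.0 without U87MG Vec replicate 1 and 0.0381, with 16 positive, without U87MG WWOX replicate 1. H4C6 and H2BC6 had called differences (8% of the list, against 2.36% of all members). H2BC6 went from 124, 458 and 294 CPM to 3.85, 6.99 and 9.91 CPM in U87MG and was 189, 128 and 228 CPM against 101, 156 and 152 CPM in DBTRG-05MG, so it followed H4C6 in neither line. Of 30 genes of hypoxia and glycolysis, 7 were positive in U87MG and 18 in DBTRG-05MG, with medians of -0.34 and 0.13. None was called by limma for the difference, where 6 had an unadjusted p under 0.05, and none by edgeR or DESeq2; without DBTRG-05MG Vec replicate 2 the DBTRG-05MG median was -0.176.

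By limma no difference was called among the 21 WWOX binding partners (medians -0.05 and 0.03), the 23 p53 targets, the 28 interferon-stimulated genes, the 16 genes of MHC class I presentation, the 29 mitotic genes, the 30 ribosomal protein genes, the 9 metallothioneins, the 21 YAP and TAZ targets or the 21 matrix proteases and inhibitors. For the binding partners 3 had an unadjusted p under 0.05 by limma, and edgeR called none and DESeq2 1 for the difference. For the other lists named, 16 of the 176 genes had an unadjusted p under 0.05, and edgeR called 1 and DESeq2 6. The matrix proteases and inhibitors still had a median difference of -0.61, with medians of -0.09 in U87MG and 0.27 in DBTRG-05MG. Their difference was positive for 8 of 21. Without 1 library the median difference ranged from -0.752 to -0.434, and 0 to 4 differences were called. Of the 27 mesenchymal glioblastoma genes only FOSL2 had a called difference (3.70%, against 2.36% of all members).

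A list of 23 genes was taken from those that the study names as regulated inversely in DBTRG-05MG, and it does not hold all of them. The study chose them on these samples, so their direction here is not independent evidence. In the comparison with U87MG, 21 of 23 had opposite signs, the medians were -0.30 in U87MG and 0.20 in DBTRG-05MG, and Vec and WWOX libraries did not overlap in either line, in opposite directions, for 6 (1.57% of all members did so). The difference was called for 4 of them (17.4%, against 2.36% of all members), DUSP4 and CLU above 0 and LINC01547 and FOSL2 below 0. The calls of CLU and FOSL2 each held in 4 of 12 other settings and in 2 of 12 fits without 1 library, and that of DUSP4 was lost with the replicate block and with all 24 libraries in the fit. CLU, the chaperone clusterin, was 539, 336 and 429 CPM against 769, 608 and 763 CPM in U87MG and 1832, 1091 and 2293 CPM against 781, 1110 and 941 CPM in DBTRG-05MG. LINC01547 went from 6.11, 3.71 and 6.03 CPM to 2.51, 2.24 and 2.54 CPM in U87MG and from 14.9, 14.9 and 17.3 CPM to 21.9, 28.4 and 32.6 CPM in DBTRG-05MG. Of the others, ENG (-0.32 and 0.73), SH3BP2 (0.41 and -0.54) and SLCO4A1 (-0.30 and 1.21) came nearest to the threshold, and WDTC1 (-0.43 and -0.17) and PLCD3 (0.06 and 0.19) had the same sign in both lines.

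By chromosome, the difference was called most often on chromosome 18, for 12 of 165 members (7.27%), and on chromosome 21, for 7 of 125 (5.6%). On chromosome 19, 20 of the 26 called differences were positive, and on chromosome 2, 20 of 23 were negative. The median effect of a chromosome, relative to all members, ranged in DBTRG-05MG from -0.218 on chromosome 9 to 0.206 on chromosome 10, and in U87MG it was 0.329 on chromosome 18 and otherwise between -0.109 and 0.13. Concordant genes were also uneven: 8 of the 40 that were higher in both lines lay on chromosome 18, where the medians were 0.329 in U87MG and 0.178 in DBTRG-05MG, and 9 of the 42 that were lower lay on chromosome 9, where they were -0.107 and -0.218. With each chromosome's median subtracted there were 83 concordant genes, 56 of them among the 82. The copy number of the transduced cells was not measured here, so its part in these shifts was not tested.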

How the data were processed

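CAGE-Seq tags of 12 libraries were analysed, 3 for each of U87MG Vec, U87MG WWOX, DBTRG-05MG Vec and DBTRG-05MG WWOX. The authors deposited CPM values per gene for 24 libraries, after mapping to hg38 with STAR and counting tags with SAMtools (limma 3.42 is also listed in the submitters' processing notes). Each column summed to 1000000, the 24 single-library files were identical to the table, and whole tags could be recovered for 100% of the values (tolerance 0.01), so that edgeR 4.0.16, limma-voom and DESeq2 1.42.0 could be run on the recovered tags as alternatives. The strand setting of the counting is not given in the sources used here, so tags of overlapping or antisense genes cannot be told apart. Gene positions were taken from GENCODE 44, whose identifiers matched 43033 of the 43037 genes.

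The CPM were divided by TMM factors (0.856 to 1.16) and log2(CPM + 0.5) was fitted with limma 3.58.1 (R 4.3.3, trend on the mean level, 4 groups, 8 residual degrees of freedom), on every gene with 5 CPM in at least 1 of the 12 libraries. Fold changes are on this scale and understate those of low genes. P-values are two-sided and Benjamini-Hochberg adjusted over all 11518 genes tested, and the 11125 autosomal ones are reported. Replicates correlated with r from 0.958 to 0.984 across genes, and no pair agreed within sampling noise. The steps were tested on simulated data, with changes placed in U87MG WWOX alone. For the difference, limma recovered 68 of 100 changes of 4-fold and 5 of 100 of 2-fold, with 5 false calls. Most 2-fold differences would thus be missed, and a gene without a call may still differ.

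A gene was called opposite where the difference was called, the signs differed and the libraries did not overlap in either line. Genes were named by rule: WWOX, the shared genes, up to 8 opposite genes each way by the smaller change, up to 6 genes led by each line each way by the difference, up to 4 genes of each list by the p of the difference, and all 23 listed genes of those the study names as inverse. A few genes that this rule names are not reported here. The members and the gene lists were chosen with earlier results of these data known. Counting intervals and floors cover counting error only. The 12 other settings tried were other pseudocounts, filters, scalings, tools and samples, a replicate block, and chromosome medians subtracted.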

Additional observations from a re-analysis of the deposited data

Results flagged for a closer look

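The test of the difference between the lines singled out 262 genes whose response to WWOX was not the same in U87MG and DBTRG-05MG. The 16 opposite genes named by rule are collected here with that difference, in log2 units (U87MG minus DBTRG-05MG). The positive ones, where the level was higher with WWOX in U87MG and lower in DBTRG-05MG, were LINC02381 (4.75), LAMA1 (4.31), TBX3 (3.59), ALDH1L1 (2.54), DMKN (2.49), SIGLEC15 (2.39), HIP1R (2.30) and ARC (2.06). The negative ones were NMRAL1 (-5.20), HSPB6 (-4.91), TSPAN15 (-4.06), GRTP1 (-4.02), PADI2 (-3.81), TPM1 (-3.44), TENM2 (-3.36) and KIF6 (-3.02). LAMA1 in DBTRG-05MG WWOX, SIGLEC15 in DBTRG-05MG WWOX, PADI2 in U87MG WWOX and ALDH1L1 in U87MG Vec were at or under 3 tags in every library, so these differences depend on the pseudocount. TENM2 and KIF6 overlap other annotated genes.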

How the results depend on the processing

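With 3 libraries a group, the counts of calls moved with single libraries and with the tool. Leaving out 1 library gave 174 to 375 called differences (lowest without U87MG WWOX replicate 2, highest without U87MG Vec replicate 1) and 249 to 746 calls in U87MG (746 without U87MG Vec replicate 1, and 249, 269 and 264 without U87MG Vec replicate 2, U87MG Vec replicate 3 and U87MG WWOX replicate 2). It gave 58 to 155 calls in DBTRG-05MG (58, 69, 60 and 74 without DBTRG-05MG Vec replicate 1 and DBTRG-05MG WWOX replicates 1, 2 and 3), 3 to 8 shared genes (3 without DBTRG-05MG Vec replicate 1, DBTRG-05MG WWOX replicate 1 or 2, or U87MG WWOX replicate 2), 51 to 105 opposite genes and 0.22 to 0.33 for the difference of WWOX. The concordant genes, a count chosen after seeing the data, numbered 53 to 224 (224, 135 and 140 without U87MG Vec replicate 1, U87MG WWOX replicate 3 and DBTRG-05MG Vec replicate 2, and 53 to 54 without U87MG Vec replicate 3, U87MG Vec replicate 2 or DBTRG-05MG WWOX replicate 2). DESeq2 gave 448 differences, 306 DBTRG-05MG calls, 18 shared, 113 opposite and 141 concordant genes, and edgeR gave 82 DBTRG-05MG calls. Without a filter DBTRG-05MG had 277 calls, and with a mean of at least 5 CPM there were 157 differences, 291 U87MG calls, 68 DBTRG-05MG calls and 50 concordant genes, from fewer genes tested. With all 24 libraries in the fit 47 genes were opposite. The causes of these moves were not tested.

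The replicate numbers were shared between Vec and WWOX, but same-numbered libraries did not deviate together (correlations of 0.35, 0.22 and -0.15 in U87MG and -0.54, -0.56 and -0.25 in DBTRG-05MG), so they were not taken as pairs. With the replicate block there were 175 differences, 330 U87MG calls, 63 DBTRG-05MG calls, 3 shared, 41 opposite and 57 concordant genes, and each DBTRG-05MG library correlated best with a library of another number (0.62 to 0.66).

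Of 2721 alternative values of named genes, 2472 kept the sign and the side of the threshold of the difference, 213 lost the call, 18 gained it and 18 turned sign. The sign turned in 5 genes whose difference had not been called. They were PRSS3 (-0.076 with a pseudocount of 1, -0.018 with chromosome medians subtracted, and -0.19 to 0.32 without 1 library), AP1M2 (-0.79 with a pseudocount of 0.1, -2.54 by edgeR, -1.77 by limma-voom and -2.80 by DESeq2), FOSL1 (-0.12 to 0.19 without 1 library), WDTC1 (-0.43 to 0.062) and PLCD3 (-0.37 to 0.18). Changes of genes near the floor of 3 tags were not detectable in the low group, whatever the setting.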
